A study of Rattus norvegicus with 14 samples.

Results

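Vim encodes vimentin, the type III intermediate filament protein of mesenchymal cells and of immature glia. The 35 candidate transcription start sites (TSSs) assigned to Vim were taken by gene symbol from a table of 4993 candidate TSSs, in which 4698 carry a symbol and fall on 2993 genes. A candidate TSS is a cluster of 5′ transcript ends seen in rat sciatic nerve near an H3K4me3 peak that overlaps a SOX10 peak of the same tissue. Only 3 genes had more candidate TSSs than Vim, among them Malat1 with 66 and Neat1 with 39. The Vim total is the sum over its candidate TSSs, so 5′ ends used in cultured cells alone are not part of it.

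Vimentin filaments assemble from parallel coiled-coil dimers without a nucleotide, are loosened by phosphorylation, and are tied to actin, microtubules and adhesion sites by plakins such as plectin. In the nerve, vimentin is made by Schwann cells, above all immature and repair cells, and also by endoneurial fibroblasts, perineurial cells, endothelium and macrophages. Its promoter carries a TATA box, as the promoters of few broadly expressed genes do, and a focused start site is the usual pattern of such promoters.

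Tn5Prime, which sequences the 5′ ends of cDNA made with an oligo-dT primer and a template-switching oligo, was applied to 14 libraries in 5 groups. The 2 sciatic nerve libraries came from separate wild type rats aged 6 to 9 months. The 3 control and 3 cAMP libraries came from separate populations of purchased wild type primary rat Schwann cells kept in 5% FBS without neuregulin and forskolin, with vehicle in the control group and 250 µM CPT-cAMP for 3 days in the cAMP group. The 2 parental libraries came from 2 RNA samples of unmodified S16 cells, an immortalized rat Schwann cell line grown in 10% FBS. The 4 ΔSOX10 libraries came from 4 clonal lines derived from S16 cells by Cas9 cutting in the first coding exon of Sox10, in which every allele carried a frameshift. These lines were made with 2 guide RNAs by transfection, puromycin selection and single-cell sorting, steps not described for the parental cells. They were then grown like the parental cells, and each line descends from 1 cell. A nerve library holds all cell types of the nerve, so that for nerve, fewer cells of a type and less RNA per cell cannot be told apart. The primary cells were sequenced on a NovaSeq, nerve and S16 RNA on a HiSeq, so instrument and cell model cannot be told apart between these sets.

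Library totals ran from 29895599 to 79940274 reads, of which 28.7% to 37.0% fell in candidate TSSs. Vim took 35791 reads in the shallower nerve library and 1758198 in the deepest cAMP library. As labelled, Sox10 read 84.1 RPM (read starts per 1000000 reads of the library) in the parental mean and 0.0412 RPM in the ΔSOX10 mean, a log2 fold change of -6.35 (limma, adjusted p = 1.51e-06). The Schwann cell markers S100b, Ngfr, Mbp, Pmp22 and Erbb3 were above 3 reads in every library of the nerve, primary cell and parental groups. In ΔSOX10 cells Erbb3 had 1 read in clone 1-1 and none in the other clones, below the floor of 3 reads. S100b, a calcium-binding protein of Schwann cells, averaged 1711 RPM in nerve, 1883 RPM in control, 1595 RPM in cAMP, 157 RPM in parental and 9.26 RPM in ΔSOX10 cells. Csf1r, a macrophage receptor, was between 1.07 and 4.82 RPM in nerve and listed at 0 in control, cAMP and parental libraries.

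The RefSeq promoter window of Vim is shown because the main Vim TSS lies in both ChIP peaks and took most of the reads in cultured cells. It covers 250 bases before and 50 bases after the annotated gene start, at chr17:81577011-81577310 on the plus strand of GRCr8. The data are in rn5 coordinates and the builds were not converted, so no TSS was placed in this window. Capitals mark the motif matches.
Vim promoter: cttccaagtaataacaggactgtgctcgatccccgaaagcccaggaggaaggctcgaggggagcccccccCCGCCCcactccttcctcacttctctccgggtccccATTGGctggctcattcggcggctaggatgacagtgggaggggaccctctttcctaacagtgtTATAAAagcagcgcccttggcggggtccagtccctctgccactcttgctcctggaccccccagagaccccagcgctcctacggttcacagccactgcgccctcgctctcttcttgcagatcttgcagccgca
The first capitals are the reverse complement of GGGCGG (a GC box), followed by ATTGG, the reverse complement of CCAAT, and by TATAAA (the core of a TATA box). Both strands were searched, and no match overlapped another. The matches begin 180, 144 and 82 bases before the gene start. Among all 33469 rat promoter windows of 300 bases, GGGCGG was found in 33.1%, CCAAT in 37.5% and TATAAA in 14.2%. Matches to ACAAAG and ACAATG, which are forms of the SOX core motif, were not in this window and were found in 18.8% and 13.2% of all windows. TGAGTCA (AP-1) and TGACGTCA (the cAMP response element) were likewise not in it, against 4.63% and 1.83% of all windows. Only exact matches in these 300 bases were searched. The listed SOX10 peak spans 2600 bp in rn5, and its sequence was not searched. The window had a GC content of 62% and 14 CpG dinucleotides, against medians of 51.7% and 7 over all windows.

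All 35 Vim TSSs lay on the plus strand of chromosome 17 within 6367 bp, from 82500555 to 82506921 (rn5). No 2 of them overlapped, and the median gap between neighbours was 22 bp. The TSS with the highest mean in nerve, called the main TSS here, covered the 14 bp at chr17:82500843-82500856. There were 2 TSSs upstream of its start, at 288 and 32 bp, and 32 downstream, from 369 to 6076 bp. Where a gap of 300 bp or more opens a new block, the TSSs fell into 6 blocks. Block 1 held the main TSS and both upstream ones, block 2 held 12 TSSs between 369 and 693 bp downstream, and block 3 a TSS of 59 bp at 1252 bp. Block 4 held 12 TSSs between 4163 and 4493 bp, block 5 a TSS of 118 bp at 4922 bp, and block 6 held 6 TSSs between 5869 and 6078 bp. An annotation of rn5 was not used here, and exon, intron or UTR is not given for these positions.

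Vim TSSs were narrow. Their median width was 4 bp, 11 of them spanned 2 bp, and 33 of 35 were narrower than the median of all candidate TSSs, 57 bp. The exceptions were the TSSs at 1252 and 4922 bp. The listed H3K4me3 peak of sciatic nerve, chr17:82498525-82506309, held 29 of the TSSs, and the 6 of the last block lay between 402 and 609 bp beyond its end. The listed SOX10 peak, chr17:82498800-82501399, held 9 TSSs. The other 26 were up to 5519 bp away from it, and the end of the peak was 543 bp downstream of the main TSS.

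**Figure D1:**
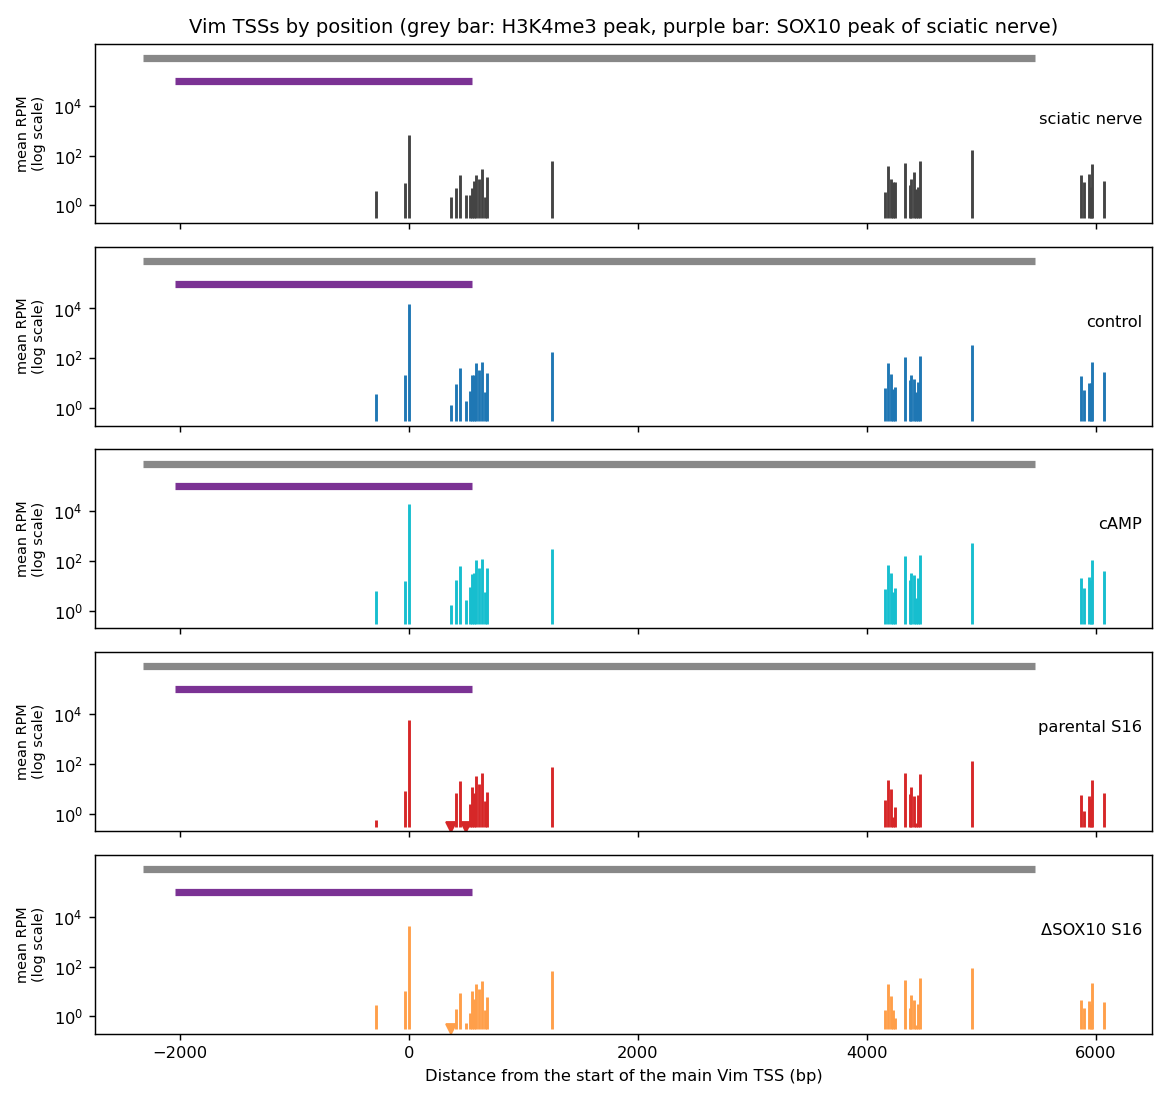
Mean RPM of each Vim TSS (log axis) against its distance from the start of the main TSS in bp, with 1 panel per group; bars at the top mark the H3K4me3 (grey) and SOX10 (purple) peaks of sciatic nerve, and triangles mark TSSs under 0.3 RPM. The main TSS is the tallest line in each panel. Positions come from a single list of TSSs seen in nerve, so the 5 blocks of the 32 downstream TSSs are the same in every panel.

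Vim was lowest in sciatic nerve, intermediate in S16 cells and highest in primary Schwann cells. In the nerve libraries the Vim total was 1197 and 1458 RPM, and in the ΔSOX10 libraries 1-1, 1-2, 2-1 and 2-2 it was 4469, 3305, 5286 and 4713 RPM. Parental libraries had 6713 and 6340 RPM. Control libraries had 16806, 15425 and 15962 RPM, and cAMP libraries had 21994, 21142 and 20583 RPM. No library of any group reached into the range of a neighbouring group. In share of all reads, the Vim total was 0.120% and 0.146% in nerve and between 2.06% and 2.20% in the cAMP group.

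Neighbours in this order were compared by limma on log2(RPM + 1) gene totals with Benjamini-Hochberg adjustment over all genes tested. From nerve to ΔSOX10 cells the log2 difference was 1.73 (SE 0.16, adjusted p = 9.83e-08), and from parental to control cells it was 1.30 (SE 0.17, adjusted p = 3.90e-05), both in a model of all 14 libraries over the genes that passed the filter in them. Of 2965 genes, 39.1% were called higher in ΔSOX10 cells than in nerve and 19.0% higher in control than in parental cells. The remaining neighbours, ΔSOX10 against parental and control against cAMP, are the study's own comparisons and are given further on.

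**Figure D2:**
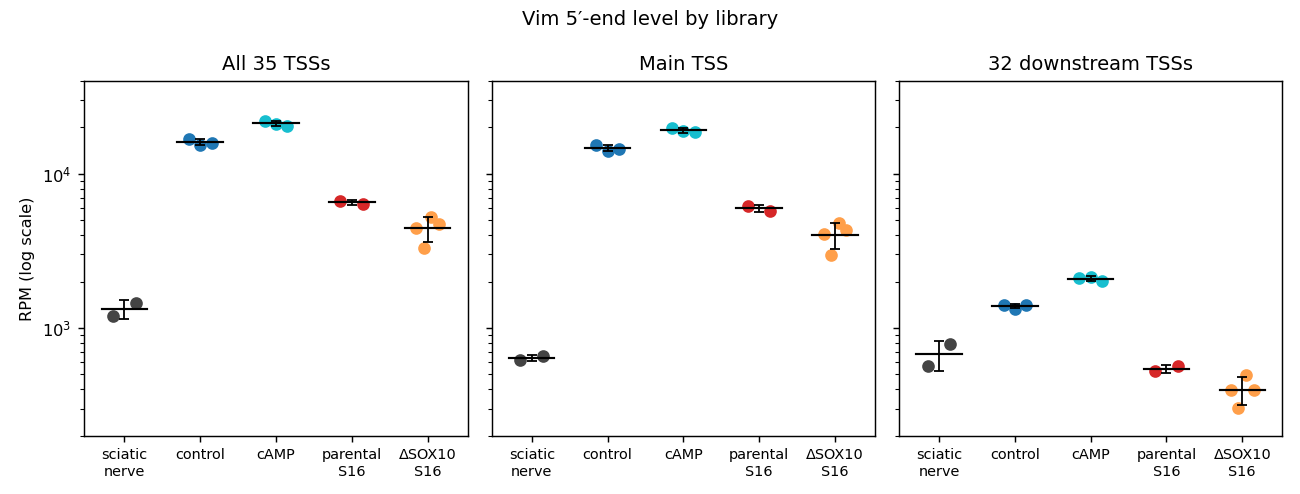
RPM (log axis) of all 35 Vim TSSs, of the main TSS and of the 32 downstream TSSs in each library; points are libraries, lines are group means and bars are SD. The groups are apart at the main TSS, whereas downstream TSSs of nerve (569 and 782 RPM) lie above parental ones (523 and 563 RPM).

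Differences between groups in the Vim total were mostly differences at the main TSS. In nerve the main TSS had 622 and 659 RPM. It had 6183 and 5767 RPM in parental cells and 4044, 2995, 4775 and 4314 RPM in ΔSOX10 cells. Primary cells had 15370, 14062 and 14529 RPM in the control group and 19845, 18983 and 18550 RPM in the cAMP group. Since each cDNA gives 1 read start, RPM of TSSs needs no correction for length, and in all 6 primary Schwann cell libraries the main Vim TSS had rank 1 of the 4993 candidate TSSs. Its rank was 4 and 5 in the parental libraries, 6 or 7 in ΔSOX10 and 43 and 39 in nerve.

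Downstream TSSs followed another order by group means, though the lower nerve library was close to the higher parental one, and this order was not tested. Their sum was 569 and 782 RPM in nerve, 523 and 563 RPM in parental cells and between 302 and 499 RPM in ΔSOX10 cells. It was between 1335 and 1413 RPM in control and between 2014 and 2138 RPM in cAMP cells. Parental cells thus had 9.33 times the nerve mean at the main TSS and 0.803 times the nerve mean at the downstream TSSs. Nerve libraries were above both parental libraries at 15 Vim TSSs and below both at 5, namely the main TSS and those at 549, 587, 636 and 1252 bp. Among the 4659 candidate TSSs that passed 1 RPM in 2 or more of these 4 libraries, 35.6% had nerve above and 38.0% had nerve below parental cells.

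The main TSS held 52.0% of the Vim total in the first nerve library (95% Wilson interval 51.4 to 52.5) and 45.2% in the second (44.8 to 45.6). In the 12 libraries of cultured cells it held between 89.8% and 92.1%, and no interval was wider than 0.317 points. Intervals cover the counting error of reads only. Reads are not counted by molecule, so the error for molecules may be larger. The mean share was 43.0 points higher in parental cells than in nerve, beyond the spread of both groups. An exact two-sided permutation test of 2 against 2 libraries cannot go below p = 0.333, which is the value found.

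Relative use was tested with limma's diffSplice, which sets the log2 fold change of a TSS against the other TSSs of its gene. This contrast was chosen after the data were seen, with nerve and parental libraries because they share an instrument. The fit used all 14 libraries, which share 1 estimate of the spread. Relative to the other Vim TSSs, the main TSS was higher in parental cells by 3.75 on the log2 scale (adjusted p = 7.77e-08), and by 3.73 (adjusted p = 4.85e-06) in a fit of the nerve and parental libraries alone. Of the 2201 TSSs in this test 30.1% were called, so that called differences in relative use were common between nerve and S16 cells. Whether the downstream Vim TSSs are starts of transcription or other 5′ ends, and whether RNA quality differed, was not tested. Of the 35 Vim TSSs 5 were called. Besides the main TSS, that at 549 bp was relatively higher in parental cells by 1.57, and those at 4226, 4430 and 5895 bp were relatively lower, by -2.16, -1.55 and -1.74.

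A shift towards the main TSS outside nerve was not limited to Vim. Shares and relative use cover candidate TSSs, all of them seen in nerve, so 5′ ends used in cultured cells alone are left out. The effect of this on the shares was not tested. In 65 genes with at least 5 candidate TSSs and 50 RPM in every group, the share of each gene's highest nerve TSS was higher in parental cells than in nerve in 58 genes, with a median difference of 7.96 points. Vim had the largest difference of these 65 genes in parental and in ΔSOX10 cells (42.2 points), with rank 2 in control (42.6 points) and 3 in cAMP cells (41.5 points). These 4 differences share the nerve libraries. Genes listed as markers of other nerve cells moved with this contrast as well. Itgb4, an integrin listed for perineurium, was at 51.1 and 51.5 RPM in nerve and at 0 in S16 cells. Pdgfrb, a receptor listed for mural cells, was between 30.6 and 54.8 RPM in nerve against 4.95 to 6.66 RPM in parental cells. In primary Schwann cells Pdgfrb was at 0.78 to 1.91 RPM in control and 22.4 to 29.6 RPM in cAMP libraries. Itgb4 was at 0.046 to 2.87 RPM and 3.53 to 5.09 RPM there. The nerve levels of both genes thus cannot be assigned to other cells alone. Of the 2 fibroblast genes in the table, the collagen gene Col1a1 was at 133 RPM in nerve and 2541 RPM in parental cells, whereas the receptor gene Pdgfra was at 3.11 and 0.98 RPM. Endothelial and adipocyte markers have no candidate TSS. The part of these cells in the Vim shares was not tested.

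**Figure D3:**
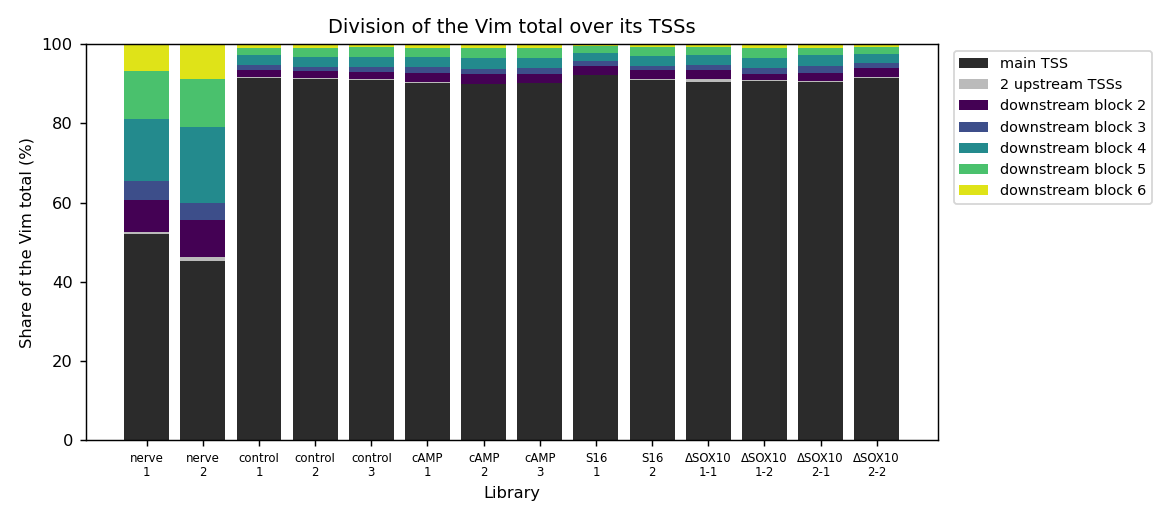
Share of the Vim total (%) held by the main TSS, the 2 upstream TSSs and downstream blocks 2 to 6 in each library. The main TSS takes 52.0% and 45.2% in the nerve libraries and between 89.8% and 92.1% in all others.

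The TSS of 118 bp at 4922 bp, chr17:82505765-82505882, was the highest of the downstream TSSs in all 5 groups. It read 145 and 178 RPM in nerve, which was 12.2% of the Vim total on average, and between 1.93% and 2.40% of it in the cultured groups. The 4 TSSs at least 28 bp wide, at 1252, 4334, 4466 and 4922 bp, held 49.6% of the downstream reads in nerve and between 52.1% and 55.5% elsewhere. Over the 32 downstream TSSs, width and mean RPM had a Spearman coefficient between 0.896 and 0.937 in the 5 groups. This is a description over TSSs that share libraries, and a wider TSS collects read starts from more positions. Per base of width, the main TSS had 45.7 RPM in nerve and 1047 RPM in control cells, against downstream medians of 1.77 and 3.33 RPM.

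The blocks differed in how much of the downstream reads they took. Blocks 4 and 6 held more in nerve (32.6% and 35.5% for block 4, 14.6% and 16.3% for block 6) than in any cultured library (26.4% to 30.8%, and 7.61% to 11.7%). Block 3 held less in nerve, 7.99% and 10.3%, against 11.99% to 17.6%. For block 5 the nerve values lay within the range of the cultured libraries. Block 2 held 17.1% and 17.4% in nerve, below all cultured libraries (20.7% to 29.4%) except ΔSOX10 1-2 (16.6%). These ranges were described without a test.

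Upstream TSSs were minor in every group, with sums between 5.13 and 28.5 RPM. The first Vim TSS by position, chr17:82500555-82500560, read 2.71 and 4.64 RPM in nerve, between 0.642 and 7.20 RPM in control and between 4.24 and 7.69 RPM in cAMP cells. In S16 cells it was 0 and 1.06 RPM in the parental libraries and between 0.534 and 7.97 RPM in ΔSOX10 libraries, so that its groups overlapped in both comparisons. A count of 0 allows up to 3 reads, which is between 0.0375 and 0.1003 RPM depending on the library. The last Vim TSS, chr17:82506919-82506921, had 7.83 and 12.04 RPM in nerve, 33.1, 25.4 and 30.1 RPM in control, and 33.4, 35.6 and 49.3 RPM in cAMP cells. It had 6.76 and 6.17 RPM in parental cells and between 3.41 and 4.14 RPM in ΔSOX10 cells.

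CPT-cAMP drives primary Schwann cells towards a myelinating state, in which myelin genes such as Mbp and Pmp22 rise, and the comparison asks how Vim responds. The Vim total was higher in cAMP cells (21240 ± 711 RPM, SD, n = 3) than in control cells (16064 ± 696 RPM, SD, n = 3). This was a rise of 1.32-fold, or 0.40 on the log2(RPM + 1) scale (SE 0.04, limma, adjusted p = 1.81e-09), with all cAMP libraries above all control libraries. Of 2853 genes tested, 14.6% were called higher and 14.7% lower, and the median of all genes was -0.04. In a model of all 14 libraries, which share 1 estimate of the spread, the same difference was not called, with adjusted p = 0.0589 over the genes that passed the filter in these 6 libraries and 0.0894 over the 2965 that passed it in all 14.

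By TSS, 12 of 35 Vim TSSs were called higher in cAMP cells and none lower. All 35 passed the filter of 1 RPM in at least 2 libraries. Over 4119 TSSs tested, 12.9% were called higher and 11.0% lower. No Vim TSS was lower at an unadjusted p under 0.05, nor was any called lower by edgeR or DESeq2, which called 9 higher each. In the model of all 14 libraries 3 were called higher. The median log2 fold change of the Vim TSSs was 0.55, against 0.02 for all TSSs, and those of 33 were above 0. The exceptions were the TSS at 32 bp upstream (-0.49, adjusted p = 0.264) and that at 4430 bp (-0.09, adjusted p = 0.955). Groups did not overlap at 14 Vim TSSs, 13 higher and 1 lower, the last being the TSS at 32 bp upstream. Over all TSSs tested, 36.6% had no overlap in either direction.

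The main TSS rose by 0.38 on the log2 scale (SE 0.04, adjusted p = 3.42e-08), from 14654 ± 663 to 19126 ± 659 RPM (SD, n = 3), and this call was lost in the model of all 14 libraries (adjusted p = 0.0546). The TSS at 4922 bp had 303, 351 and 378 RPM in control and 501, 538 and 487 RPM in cAMP libraries. It rose by 0.57 (SE 0.09, adjusted p = 7.22e-05), and its groups did not overlap. Of the called TSSs, the one at 5944 bp, chr17:82506787-82506790, had the largest log2 fold change, 1.07 (SE 0.37, adjusted p = 0.0388). It had 14.4, 6.77 and 9.23 RPM in control and 30.3, 13.1 and 24.8 RPM in cAMP libraries, with an overlap between the groups. Its call was lost under 9 of 16 alternatives, with adjusted p up to 0.215. At the last TSS the difference was 0.39 (adjusted p = 0.246), and at the first it was 0.87 (adjusted p = 0.309).

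In cAMP cells the main TSS was at 1.31 times and the sum of the downstream TSSs at 1.51 times the control mean. The main share was 91.2% ± 0.22 in control and 90.0% ± 0.23 in cAMP cells (SD, n = 3). It was 1.17 points lower in cAMP cells without overlap, and the exact two-sided permutation test gave p = 0.1, the smallest value that 3 against 3 libraries allow. In relation to the other Vim TSSs, the log2 change of the main TSS was -0.14 (diffSplice, adjusted p = 0.936), and no Vim TSS was called. For each gene diffSplice pools the spread over all its TSSs, here mostly low ones, so a small change at the main TSS could be missed. Over 1535 TSSs in this test 5.08% were called. For the gene as a whole the Simes p was 0.489 (adjusted p = 0.746), where 9.57% of 460 genes were called.

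SOX10, the transcription factor that maintains Schwann cell identity and myelin gene expression, has a listed peak over the main TSS, and ΔSOX10 cells show Vim without it. The Vim total was 4443 ± 832 RPM in ΔSOX10 cells (SD, n = 4) and 6527 ± 263 RPM in parental cells (SD, n = 2). All 4 clones were below both parental libraries, at 0.681 times the parental mean. The log2 difference of -0.57 (SE 0.22) did not pass the test (limma, adjusted p = 0.170). Over all genes the median was -0.18, so that Vim was 0.40 below it, and after TMM scaling, which moved that median to -0.03, Vim was 0.39 below it. Of 2787 genes tested 2.30% were called higher and 5.92% lower, or 64 and 165 genes, against 88 and 135 after TMM scaling. In a model of all 14 libraries Vim was called lower in ΔSOX10 cells (limma, adjusted p = 0.0126 over the genes that passed the filter in these 6 libraries and 0.0276 over those that passed it in all 14), whereas edgeR (adjusted p = 0.126) and DESeq2 (adjusted p = 0.0693) on recovered reads did not call it. The clones differed among themselves more than the parental libraries did, with coefficients of variation of 18.7% and 4.04%.

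None of the 32 Vim TSSs tested was called in either direction. The filter left out the TSSs at 369, 496 and 4430 bp, of which the first was at 0 in both parental libraries. Over 3875 TSSs, 1.65% were called higher and 6.55% lower. An unadjusted limma p under 0.05 was found at 3 Vim TSSs, namely the main TSS and those at 447 and 4922 bp, each lower in ΔSOX10 cells, and neither edgeR nor DESeq2 called any. Log2 fold changes were below 0 at 28 TSSs and above 0 at 4, those at 288 and 32 bp upstream and at 4226 and 5895 bp. Their median was -0.52, against -0.18 for all TSSs. Groups did not overlap at 9 Vim TSSs, each lower in ΔSOX10 cells, where 29.4% of all TSSs had no overlap in either direction.

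At the main TSS the log2 difference was -0.59 (SE 0.21, adjusted p = 0.159), from 5975 ± 294 RPM (SD, n = 2) to 4032 ± 754 RPM (SD, n = 4). The TSS at 4922 bp had 110 and 141 RPM in parental libraries and 83.3, 83.4, 101 and 89.6 RPM in ΔSOX10 libraries, with a log2 difference of -0.48 (adjusted p = 0.212). The main share was 91.5% ± 0.81 in parental cells (SD, n = 2) and 90.7% ± 0.54 in ΔSOX10 cells (SD, n = 4). Its groups overlapped, and an exact two-sided permutation test gave p = 0.267, where 0.13 is the smallest p possible. The relative log2 change of the main TSS was -0.17 (diffSplice, adjusted p = 0.951), and no Vim TSS was called, against 5.64% of 1366 TSSs. The pooled spread limits diffSplice here as in the cAMP comparison. The Simes p of Vim was 0.303 (adjusted p = 0.717), where 5.04% of 417 genes were called.

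**Figure D4:**
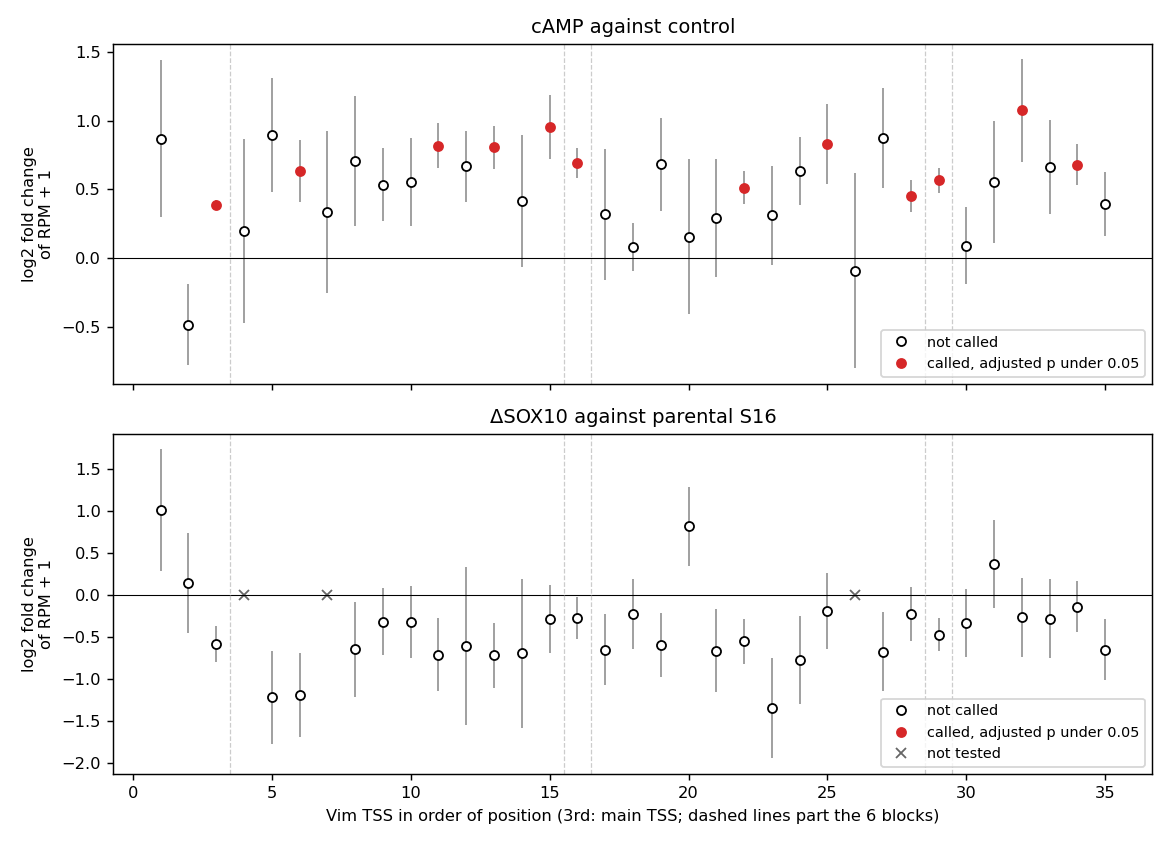
Log2 fold change of RPM + 1 with its SE for the 35 Vim TSSs in order of position, for cAMP against control (top) and ΔSOX10 against parental S16 cells (bottom); red points were called, open points were not, and crosses at 0 are TSSs left out by the filter. In the cAMP comparison 12 are called, all above 0, and in the ΔSOX10 comparison 28 of 32 lie below 0 with none called.

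Few of the genes that build, link or modify vimentin filaments have candidate TSSs. All gene totals here are, like that of Vim, sums over candidate TSSs, so other 5′ ends are left out. Of 16 other intermediate filament genes 2 are in the table, and neither was called in a comparison. Lmnb2, a nuclear lamin, was at 368 RPM in control and 418 RPM in cAMP cells (log2 difference 0.19, adjusted p = 0.127). At its 1 candidate TSS, Lmna was under 4 RPM in each group mean. The linker Plec (plectin), the only one of 8 linker genes present, fell in cAMP cells from 80.2 to 51.7 RPM (log2 fold change -0.63, adjusted p = 0.0101) and was not called in ΔSOX10 cells (0.26, adjusted p = 0.628).

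Kinases, phosphatases and 14-3-3 proteins that act on vimentin were represented by 9 of 20 genes, of which 8 were tested in each comparison. In cAMP cells 3 fell, the kinase Pak2 (-0.46, adjusted p = 0.00763) and the 14-3-3 genes Ywhaz (-0.35, adjusted p = 0.0067) and Ywhah (-0.67, adjusted p = 0.0128), and none rose, where 14.7% of all genes were called lower and 14.6% higher. In ΔSOX10 cells Ywhaq fell (-0.78, adjusted p = 0.0201) and the other 7 were not called, where 5.92% of all genes were called lower. The list medians were -0.22 and -0.01 on the log2 scale, against -0.04 and -0.18 for all genes.

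Transcription factors linked to Vim or to a mesenchymal state were represented by 7 of 20 genes. In cAMP cells 3 of 7 fell and 1 rose, against 14.7% and 14.6% of all genes, and the list median was -0.32 against -0.04. Jun, an AP-1 subunit of repair Schwann cells, fell from 545 to 60.8 RPM (log2 fold change -3.14, adjusted p = 1.55e-16), Snai2 by 4.39 (adjusted p = 9.89e-08) and Ets1 by 2.5 (adjusted p = 3.15e-05). Fos, the AP-1 partner of Jun, rose by 0.85 (adjusted p = 7.41e-05). In ΔSOX10 cells 1 of 6 tested was called, Snai2, which fell from 219 to 83.8 RPM (-1.41, adjusted p = 0.00455), against 5.92% of all genes called lower, and the list median was -0.26 against -0.18.

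Of 12 actin and tubulin genes 6 were in the table. In cAMP cells 4 fell and 1 rose, against 14.7% and 14.6% of all genes, and in ΔSOX10 cells 1 fell and none rose, against 5.92% and 2.30%. The list medians were -0.43 and -0.32, against -0.04 and -0.18 for all genes. In cAMP cells, where Vim rose, Actb fell by 0.46 (adjusted p = 2.18e-10), Tuba1a by 0.82 (adjusted p = 9.22e-13), Tubb2a by 0.39 (adjusted p = 0.00997) and Tubb6 by 0.66 (adjusted p = 6.21e-04), whereas Tubb5 rose by 0.26 (adjusted p = 0.00995) and Tuba1b was not called. In ΔSOX10 cells Tubb2a fell by 0.93 (adjusted p = 0.0301) and 5 were not called, among them Actb (0.78, adjusted p = 0.0801). In cAMP cells the fibroblast gene Col1a1 also fell, from 870 to 433 RPM (-1.01, adjusted p = 1.56e-09), while Pdgfrb rose from 1.24 to 26.4 RPM (3.64, adjusted p = 2.54e-07) and Itgb4 from 1.08 to 4.30 RPM (1.59, adjusted p = 0.0478). Their part in the Vim difference was not tested.

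Several Schwann cell markers moved with the comparisons. In cAMP cells Mbp, a myelin protein gene, rose by 2.62 (adjusted p = 3.22e-17) and Pmp22, another, by 2.99 (adjusted p = 5.72e-20), whereas the neurotrophin receptor gene Ngfr fell by 1.72 (adjusted p = 7.93e-17) and S100b by 0.24 (adjusted p = 0.00182). Sox10 (-0.17, adjusted p = 0.329) and Erbb3 (-0.17, adjusted p = 0.646) were not called in cAMP cells. In ΔSOX10 cells these 4 genes and Erbb3, a neuregulin receptor gene, fell, with log2 fold changes of -4.02 for S100b, -8.38 for Ngfr, -6.35 for Mbp, -5.05 for Pmp22 and -4.56 for Erbb3, each with an adjusted p of 2.79e-05 or less. Their part in the Vim differences was not tested.

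The genes whose group means were most like those of Vim were Clta, Mfsd1, Hnrnpl, Rcan1 and Mtmr2. Likeness was measured as the root mean square difference of log2(RPM + 1) gene totals over the 5 groups, after each gene was centred on its own mean, among 1284 genes of at least 50 RPM in 1 or more groups. The difference was 0.23 for Clta (clathrin light chain A), 0.25 for Mfsd1 (a lysosomal transporter), 0.35 for Hnrnpl (an RNA-binding protein), 0.36 for Rcan1 (a calcineurin regulator) and 0.37 for Mtmr2 (a phosphoinositide phosphatase). Over all genes compared the median difference was 1.139. Means of the 5 genes in nerve were between 2.70 and 11.1 RPM, against 1328 RPM for Vim. At such low levels this scale understates differences, so the likeness depends on the added 1 RPM. Centred values of Vim were -2.33 in nerve, -0.60 in ΔSOX10, -0.02 in parental, 1.27 in control and 1.68 in cAMP cells. None of the 5 genes was called in either of the study's comparisons.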

How the data were processed

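The authors trimmed Tn5Prime reads with Cutadapt 1.14, mapped them to rn5 with STAR 2.5.2a, handled the alignments with SAMtools 1.9, used Make_CTSS for read starts and Paraclu for clusters, and counted the clusters by featureCounts (Subread 1.6.1), with versions per the submitters' processing notes. They deposited RPM per candidate TSS and library. RPM scales each TSS to its whole library, so a change at a few abundant TSSs moves the values of others. The log2 fold changes and FDR values (adjusted p-values) that the authors deposited from edgeR 3.24.3 were not used. PCR copies are not told apart from molecules.

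RPM values are multiples of 1 read, so library totals (29895599 to 79940274 reads) and whole reads were recovered: between 97.0% and 100% of low values lay within 0.05 of a whole read. In both parental libraries and ΔSOX10 1-1 and 1-2, between 8.59% and 9.35% of values were rounded to 3 digits. The step could not be checked in the second nerve library, which has few low values.

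Features that passed 1 RPM in 2 or more of the 6 libraries compared were tested on log2(RPM + 1) with limma 3.58.1 (eBayes with trend) in R 4.3.3, each comparison over its own 6 libraries, with Benjamini-Hochberg adjustment over all features and a threshold of 0.05. Fold changes on this scale are understated at low RPM. TSS use was tested with diffSplice, and shares with exact permutation tests (scipy 1.17.1). Scripts were tested on simulated data. Replicates are separate populations, clones or, for parental cells, RNA samples of 1 line, for which p-values cover only the spread between samples. No 2 replicates were alike within sampling noise.

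TSSs named are those with at least 5% of the Vim total in any group mean, the first and last by position, and the called TSS of largest log2 fold change per comparison and direction; others named singly were chosen after their values were seen. The members and lists were chosen with earlier results of these data known. Alternatives were count tests of the recovered reads (edgeR 4.0.16, DESeq2 1.42.0), TMM and median-ratio scaling, pseudocounts of 0.1 and 5, other filters (none, or 5 RPM on average), all 14 libraries in 1 model, each library left out, and a replicate block. ChIP signal and TSSs outside the candidate set were not analysed here. Of the Schwann cell markers, 1 is not reported here.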

Additional observations from a re-analysis of the deposited data

Results flagged for a closer look

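In the ΔSOX10 group, the only one with 4 libraries, 42 Vim measures, some of them sums of others, were searched for a library far from the other 3. The search found 2, about as many as chance gives at 1 in 20 measures. At the TSS 1252 bp downstream of the main TSS, library 2-1 had 87.6 RPM and the others between 52.5 and 57.7 RPM. At the TSS at 4430 bp, library 2-1 had 1.56 RPM and the others between 0 and 0.254 RPM.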

How the results depend on the processing

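In a single model of all 14 libraries, the Vim total kept its log2 difference of 0.40 in cAMP cells but not its call (adjusted p = 0.0589), 3 Vim TSSs in place of 12 were called higher, and in ΔSOX10 cells the Vim total (-0.57, adjusted p = 0.0126) and 1 TSS, the main one (adjusted p = 0.0062), were called lower. All other alternatives listed under data processing left these results on the same side of the threshold, with 9 to 13 TSSs called higher in cAMP cells. Leaving out each library in turn gave log2 differences of the Vim total from 0.37 to 0.44 in cAMP and from -0.67 to -0.44 in ΔSOX10 cells, 9 to 12 TSSs called higher in cAMP cells, and a relative change of the main TSS in ΔSOX10 cells from -0.363 to 0.0162, the positive value being without parental replicate 1. The main share difference in ΔSOX10 cells ranged from -1.37 to -0.22 points. The TSS at 5944 bp ranged from -0.74 to 0.21 in ΔSOX10 cells, the positive value being without parental replicate 2 (adjusted p = 0.935). Where parental or nerve libraries were left out, the lone sample is assumed to vary like the other groups. The causes were not tested. Between nerve and parental cells, alternatives chosen after seeing the data kept the call of main TSS use, with values from 3.52 to 3.98 when 1 library was left out. Control and cAMP libraries of the same number did not deviate together (correlations of 0.03, 0.01 and 0.04, and replicate 2 was nearer to another number). With the replicate block the Vim total differed by 0.40 (adjusted p = 1.53e-23), 13 TSSs were called higher, the relative change of the main TSS was -0.14 and the paired share difference was -1.17 points, and no other call changed. Precision at TSSs of a few RPM is limited by depth, since 3 reads are 0.0375 to 0.1003 RPM.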

Other observations

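Among the 4 ΔSOX10 clones, 1-1 had the highest level at both TSSs upstream of the main Vim TSS. At 288 bp upstream it had 7.97 RPM and the other 3 clones between 0.534 and 1.91 RPM, and at 32 bp upstream it had 20.5 RPM and the others between 3.22 and 11.5 RPM. In this library the main TSS had 4044 RPM, within the range of the other clones (2995 to 4775 RPM).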
